A study of Mus musculus with 6 samples.

Results

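The genes described here are 8 members of the MHC class II antigen presentation pathway, out of 55401 genes with a value in the deposited data: H2-DMa, H2-DMb1 and H2-DMb2, the invariant chain gene Cd74, the classical class II chain genes H2-Aa, H2-Ab1 and H2-Eb1, and Ciita. They were matched by exact symbol. They were chosen by their measured levels in these libraries, in which the H2-DM genes had been seen to be expressed, and to be higher in lines from Rag1KO hosts, although the cells are not professional antigen presenters. The contrast between the host labels therefore chose them, and their values in it are a description without a test. The libraries are bulk RNA-seq of 6 primary cancer cell lines that were grown in culture from tumours of C57BL/6 mice. The hosts of 3 lines were labelled Rag1KO (replicates 1, 3 and 7) and those of the other 3 were labelled WT (replicates 2, 4 and 6). The Rag1 protein cuts DNA during V(D)J recombination, and mice without it have no mature T or B cells. The tumour type, the hosts' age and the way the tumours arose were not given in the sources used here, and nothing says that each line came from its own animal, so the spread between lines may be partly technical.

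MHC class II molecules are pairs of an alpha and a beta chain that present peptides from endosomes to CD4+ T cells. The new pair is held by the invariant chain, whose CLIP fragment stays in the peptide groove until the H2-DM heterodimer, made of H2-DMa and an H2-DMb chain, exchanges it for a peptide. In dendritic cells, macrophages and B cells these genes are switched on together by the transactivator encoded by Ciita, and interferon gamma induces Ciita in many other cells. C57BL/6 mice make the I-A molecule (H2-Aa with H2-Ab1) but no I-E molecule, because the H2-Ea gene that would pair with H2-Eb1 is not functional in this strain.

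Values are normalized counts, reads scaled by a size factor for each library, and each library held 55409583 to 62998051 reads. Rag1 had 41, 109 and 183 reads in the lines labelled Rag1KO (replicates 1, 3 and 7) and 0 reads in each line labelled WT, so the groups are named by their labels throughout. All 3 lines labelled Rag1KO had reads of the Y-linked genes Kdm5d, Uty, Ddx3y and Eif2s3y. Among lines labelled WT, only replicate 6 had more than 2 reads of any of them, and its Eif2s3y was at 0. WT replicates 2 and 4 expressed Xist, at 59776 and 32733 normalized counts, so label and sex coincide except in WT replicate 6. In limma, fitted across the 16137 genes that passed a filter on low counts, 1 gene passed the adjusted threshold of 0.05, the Y-linked Eif2s3y, which was higher in the lines labelled Rag1KO. That is 0.0062% of the genes tested, and DESeq2 called 0.403%. WT replicate 6 stood apart in the collagen gene Col1a1, at 206 normalized counts there and between 478322 and 1051710 in the other 5 lines, but not in Fn1 or Vim.

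In some lines the H2-DM genes and the invariant chain were expressed almost without the class II chains they serve. WT replicate 6 had 51 reads of H2-DMa, but 1 read of H2-DMb1 and 0 of H2-DMb2 and Cd74. Of the 8 genes, 4 passed the filter on low counts, namely H2-DMa, H2-DMb1, H2-DMb2 and Cd74. The other 4, H2-Aa, H2-Ab1, H2-Eb1 and Ciita, had between 0 and 8 reads in each library. RNA from bulk cultures does not tell fewer expressing cells from less RNA per cell.

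**Figure D1:**
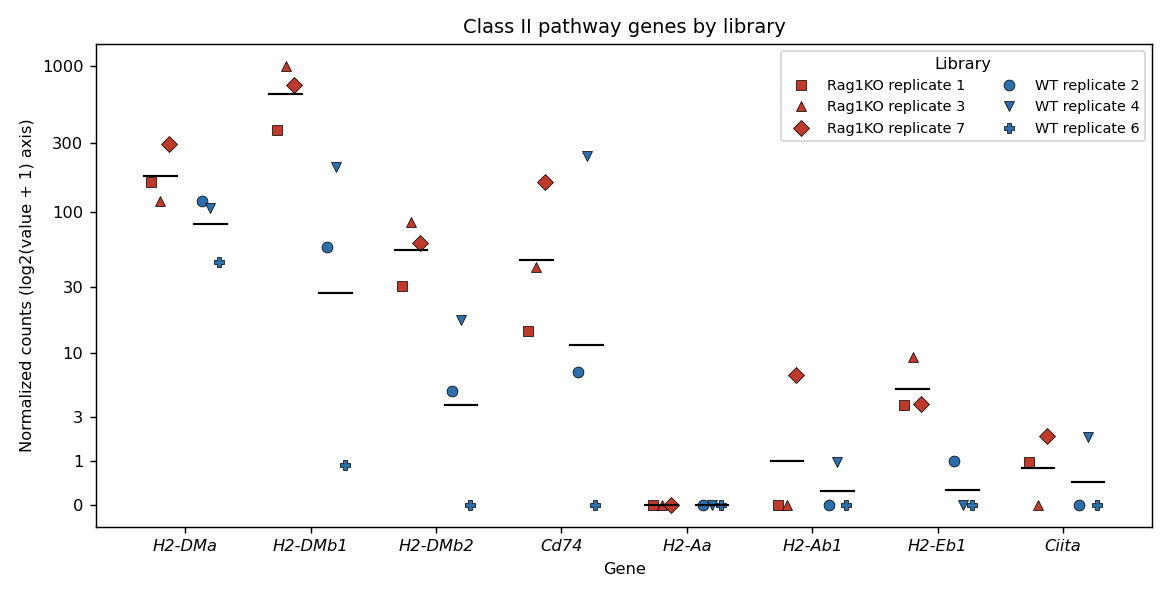
Normalized counts of the 8 genes in each library, on a log2(value + 1) axis, with lines labelled Rag1KO in red on the left of each gene and lines labelled WT in blue on the right. Each symbol is 1 library and the black bars are group means on the log2 scale. H2-DMb1 lies between 365 and 1006 in the red group and between 0.88 and 203 in the blue group, while H2-Aa is at 0 in every library.

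H2-DMb1 (ENSMUSG00000079547.4, chromosome 17, 34153072 to 34160230 on the plus strand, mm10) encodes the beta chain of H2-DM. It had 365, 1006 and 749 normalized counts in Rag1KO replicates 1, 3 and 7, against 57.4, 203 and 0.88 in WT replicates 2, 4 and 6. Every line labelled Rag1KO lay above every line labelled WT, and WT replicate 6 held 1 read of the gene, with a 95% exact Poisson interval of 0.0253 to 5.57 reads. The mean was 707 ± 322 normalized counts in lines labelled Rag1KO and 87.0 ± 104 in lines labelled WT (SD, n = 3 each), a ratio of 8.12. On the log2(value + 1) scale the difference was 4.53 with an SE of 1.72, and it was 2.58 without WT replicate 6, whose near absence of reads weighs heavily on a log scale.

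H2-DMb2 (ENSMUSG00000037548.15, chromosome 17, 34143307 to 34151555 on the plus strand) is a neighbouring beta chain copy. It had 30.7, 85.7 and 61.0 normalized counts in Rag1KO replicates 1, 3 and 7, against 5.04, 17.4 and 0 in WT replicates 2, 4 and 6. The order of the libraries was the same as for H2-DMb1, and the groups did not overlap. The means were 59.1 ± 27.6 normalized counts in lines labelled Rag1KO and 7.47 ± 8.94 in lines labelled WT (SD, n = 3 each), and the log2 difference was 3.53 with an SE of 1.14, or 2.40 without WT replicate 6.

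The reads of both beta chain copies stood in a nearly fixed ratio. H2-DMb2 took 7.75%, 7.86% and 7.54% of the reads of the pair in Rag1KO replicates 1, 3 and 7, and 8.06% and 7.89% in WT replicates 2 and 4. The exact 95% binomial intervals all overlapped, the narrowest being 6.22% to 9.76% from 942 reads and the widest 2.67% to 17.8% from 62 reads, and WT replicate 6 had too few reads for a share. These intervals, like those above, cover counting error only. The coding sequences of the copies are close to identical, with 751 of 783 aligned bases the same in GENCODE M21 (95.9%), 32 different and no gap. The longest run without a difference is 221 bases.

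The stretches below are shown because they mark where reads can and cannot be assigned to 1 copy. They are coding bases 201 to 320 of H2-DMb1-201 and H2-DMb2-201, the most different 120 bases, with the 23 differing bases in capitals.
H2-DMb1: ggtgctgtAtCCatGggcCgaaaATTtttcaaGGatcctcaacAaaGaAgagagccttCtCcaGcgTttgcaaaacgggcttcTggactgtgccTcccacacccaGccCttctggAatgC
H2-DMb2: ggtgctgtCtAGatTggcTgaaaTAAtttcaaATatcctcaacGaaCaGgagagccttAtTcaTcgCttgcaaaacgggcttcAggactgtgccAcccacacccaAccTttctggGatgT
In coding bases 391 to 510, by contrast, the copies share all 120 bases.
Both copies: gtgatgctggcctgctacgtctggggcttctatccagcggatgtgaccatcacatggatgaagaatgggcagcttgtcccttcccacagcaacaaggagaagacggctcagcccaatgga
Of all stretches of 50 bases in the H2-DMb2 transcript, 26.8% also occur in H2-DMb1 transcripts, and 13.5% of the stretches of 100 bases do. The read length and the way reads with several matches were counted were not given in the sources used here, so the assignment of reads to H2-DMb2 is uncertain, and its part in the fixed ratio was not tested. With both copies summed as 1 gene, the log2 difference was 4.57, an alternative added after the data were seen.

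**Figure D2:**
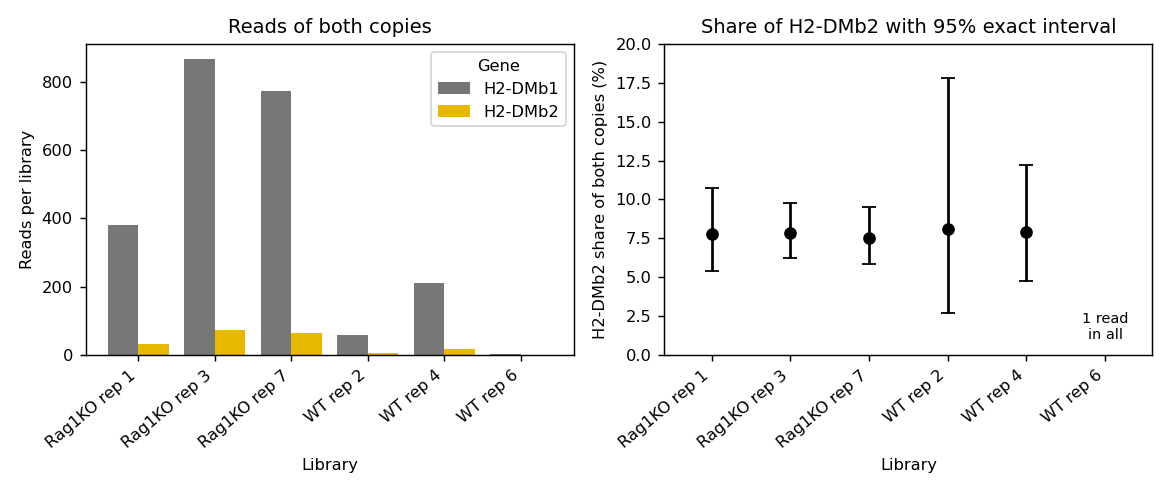
Left, reads of H2-DMb1 and H2-DMb2 in each library. Right, the share of H2-DMb2 among the reads of both copies in percent, with exact 95% binomial intervals, for the 5 libraries with more than 1 read. The totals run from 62 to 942 reads while the share stays between 7.54% and 8.06%.

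H2-DMa (ENSMUSG00000037649.10, chromosome 17, 34119541 to 34139101 on the plus strand) encodes the alpha chain of H2-DM, and it varied less. It had 161, 119.3 and 294 normalized counts in Rag1KO replicates 1, 3 and 7, against 118.8, 107 and 44.9 in WT replicates 2, 4 and 6. The groups were separated by less than the counting error, since the 95% counting intervals of Rag1KO replicate 3 and WT replicate 2 were 97.4 to 145 and 98.4 to 142 normalized counts. The mean was 191 ± 91.0 in lines labelled Rag1KO and 90.3 ± 39.8 in lines labelled WT (SD, n = 3 each), with a log2 difference of 1.09 and an SE of 0.57. H2-DMa shares 360 of its 3448 annotated exon bases with Brd2, a chromatin reader gene on the opposite strand that stood at 11861 to 18703 normalized counts. The library kit marks strand but the counting was not stated to use it, so reads from the shared bases may belong to either gene.

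Both chains of the heterodimer are needed for a working H2-DM, and their levels were not matched. Per kb of exon, H2-DMb1 stood at 4.65, 17.3 and 5.23 times the level of H2-DMa in Rag1KO replicates 1, 3 and 7. In WT replicates 2, 4 and 6 the same ratio was 0.991, 3.88 and 0.0402. The lengths take all annotated exons of a gene together, 1681 bases for H2-DMb1 and 3448 for H2-DMa. Which exons these lines use was not determined, so the size of the ratios depends on those lengths. H2-DMa still had reads in WT replicate 6 (51 reads), where H2-DMb1 had 1.

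Cd74 (ENSMUSG00000024610.15, chromosome 18, 60803848 to 60812652 on the plus strand) encodes the invariant chain, which also serves at the cell surface as a receptor for the cytokine MIF. It had 14.4, 41.7 and 160 normalized counts in Rag1KO replicates 1, 3 and 7, against 7.05, 241 and 0 in WT replicates 2, 4 and 6. The groups overlapped, and the highest and the lowest library were both labelled WT. The means were 72.0 ± 77.3 in lines labelled Rag1KO and 82.8 ± 137 in lines labelled WT (SD, n = 3 each), so the mean of the counts was lower in lines labelled Rag1KO while the mean log2 difference was 1.92 with an SE of 2.09. That log2 difference was 0.10 without WT replicate 6 and 4.06 without WT replicate 4, and the data give no stable direction for Cd74.

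H2-Eb1 (ENSMUSG00000060586.11, chromosome 17, 34305867 to 34316674 on the plus strand), the beta chain gene of I-E, was the best covered of the classical chains. It had 4, 8 and 4 reads in Rag1KO replicates 1, 3 and 7, against 1, 0 and 0 reads in WT replicates 2, 4 and 6. The groups did not overlap, but the 95% counting interval of 1 read reaches 5.57 reads, above the 4 reads seen in Rag1KO replicates 1 and 7.

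The I-A genes were close to silent. H2-Ab1 (chromosome 17, 34257689 to 34269419), the beta chain gene, had 7 reads in Rag1KO replicate 7, 1 read in WT replicate 4 and 0 in the other 4 libraries. H2-Aa (chromosome 17, 34282744 to 34287823), its alpha chain partner, had 0 reads in all 6 libraries, which allows up to 2.64 to 3.48 normalized counts per library when 3 reads are taken as the limit of a count of 0. No difference between the groups was detectable for them at this depth.

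Ciita (ENSMUSG00000022504.10, chromosome 16, 10480059 to 10528418 on the plus strand), the transactivator, had 1, 0 and 2 reads in Rag1KO replicates 1, 3 and 7, against 0, 2 and 0 reads in WT replicates 2, 4 and 6. Rag1KO replicate 3, which had the highest H2-DMb1 level of all, held 0 Ciita reads. At that depth 0 reads allows up to 3.48 normalized counts of Ciita when 3 reads are taken as the limit. The exact 95% Poisson interval, used above for 1 read, reaches 4.27 normalized counts. Ciita also shares 329 of its 9535 exon bases with Dexi, a gene on the opposite strand, so even these few reads may belong to either gene.

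Ordered by mean level per kb of exon in lines labelled Rag1KO, H2-DMb1 came first at 420 ± 192 normalized counts per kb (SD, n = 3), followed by H2-DMa at 55.5 ± 26.4, Cd74 at 42.9 ± 46.0 and H2-DMb2 at 33.9 ± 15.8. The last 3 did not differ beyond their spread. In lines labelled WT, H2-DMb1 at 51.8 ± 62.0, Cd74 at 49.3 ± 81.8 and H2-DMa at 26.2 ± 11.5 normalized counts per kb did not differ beyond their spread, and H2-DMb2, at 4.28 ± 5.12, lay below H2-DMa in each line. H2-Eb1, H2-Ab1 and Ciita averaged at most 2.91 normalized counts per kb in either group. Among the 8 genes, 4 had every line labelled Rag1KO above every line labelled WT (H2-DMa, H2-DMb1, H2-DMb2 and, from few reads, H2-Eb1). Of all genes tested, 5.6% had the same order, a share that does not cover H2-Eb1 and the other members that did not pass the filter. The contrast between the labels chose the genes, so nothing is read from the count. WT replicate 6 was the lowest library, ties at 0 included, for all 8 genes, and it was the lowest for 30.9% of all genes tested. That share does not cover the 4 members that did not pass the filter, for which WT replicate 6 only tied at 0 with other lines labelled WT or with lines of both labels. Low values in lines labelled WT also helped to choose the genes, so nothing is read from this count either.

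The sequences before the RefSeq starts of the DM and class II chain genes were searched for a known landmark. Class II promoters carry an X box, bound by the RFX complex, followed by a Y box, bound by NF-Y, and CIITA docks on the proteins assembled there. The 75-base windows below, from RefSeq on GRCm38.p6, are shown because H2-DMb1 and H2-DMb2 had the same order of libraries and because H2-Aa and H2-Eb1 carry the same arrangement with few or no reads. Capitals mark ATTGG, the Y box core read on the gene's strand, and GNAAC, a part of the X box core, where it stands 20 to 32 bases before ATTGG. The windows are chr17:34153080-34153154 (plus strand) for H2-DMb1, chr17:34145109-34145183 (plus strand) for H2-DMb2, chr17:34305758-34305832 (plus strand) for H2-Eb1 and chr17:34287847-34287921 (minus strand) for H2-Aa. The H2-DM windows precede a RefSeq start but lie inside the longer GENCODE gene spans given above.
H2-DMb1: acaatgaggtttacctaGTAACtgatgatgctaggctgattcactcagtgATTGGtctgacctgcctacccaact
H2-DMb2: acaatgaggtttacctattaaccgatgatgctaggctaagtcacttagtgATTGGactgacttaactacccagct
H2-Eb1: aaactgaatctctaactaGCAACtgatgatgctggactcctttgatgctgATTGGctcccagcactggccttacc
H2-Aa: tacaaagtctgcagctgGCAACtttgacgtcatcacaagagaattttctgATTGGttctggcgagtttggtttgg

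The pair GNAAC then ATTGG, searched on both strands in the 250 bases before each start, occurred in 1.87% of 32851 promoters, and ATTGG alone in 33.8%. These letters were settled on after the windows had been read. The pair stood upstream of H2-DMb1, H2-Aa and H2-Eb1, and also of H2-Oa, H2-Ob and H2-Eb2, which had 0 reads in every library. The H2-DMb2 window holds ATTGG but not GNAAC at that distance. H2-DMa has a pair of annotated starts, and neither window holds the arrangement. ATTGG alone stands 198 bases before the second start and is absent before the first. The 100 bases before its first start (chr17:34122732-34122831, plus strand) are shown for contrast, and they lie close to the end of the Brd2 span at 34122634.
H2-DMa: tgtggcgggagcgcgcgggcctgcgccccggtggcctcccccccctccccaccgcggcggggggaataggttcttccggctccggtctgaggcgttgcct
Presence of the letters is a description of the window and shows neither binding nor activity.

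The H2-DM genes lie in a block of expressed genes beside a stretch with few or no reads. From Col11a2 to Notch4 on chromosome 17, both included, lie 21 annotated protein-coding genes and H2-Ea-ps, and 9 of these 22 had 0 reads in all 6 libraries. Both end genes passed the filter, with up to 73.8 normalized counts per kb for Col11a2 and 125 for Notch4. The adjacent genes from Brd2 through the H2-DM genes, Psmb9, Tap1 and Psmb8 to Tap2 had reads in every library, except H2-DMb2 in WT replicate 6. From H2-Ob to Btnl6 no gene exceeded 5.22 normalized counts per kb in any library. Psmb9, Tap1, Psmb8 and Tap2, which encode proteasome subunits and the peptide transporter of the class I pathway, sit directly beside H2-DMb1, and for each of them the lines labelled Rag1KO and WT overlapped. In WT replicate 6, where H2-DMb1 was at 0.88 normalized counts, Tap1 was at 2334, the highest of the 6 libraries, and Psmb9 at 168, also the highest. Psmb8 and Tap2 were not highest there. Psmb8 was at 363, below 403 in Rag1KO replicate 7, and Tap2 at 1400, below 2137 in Rag1KO replicate 1.

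**Figure D3:**
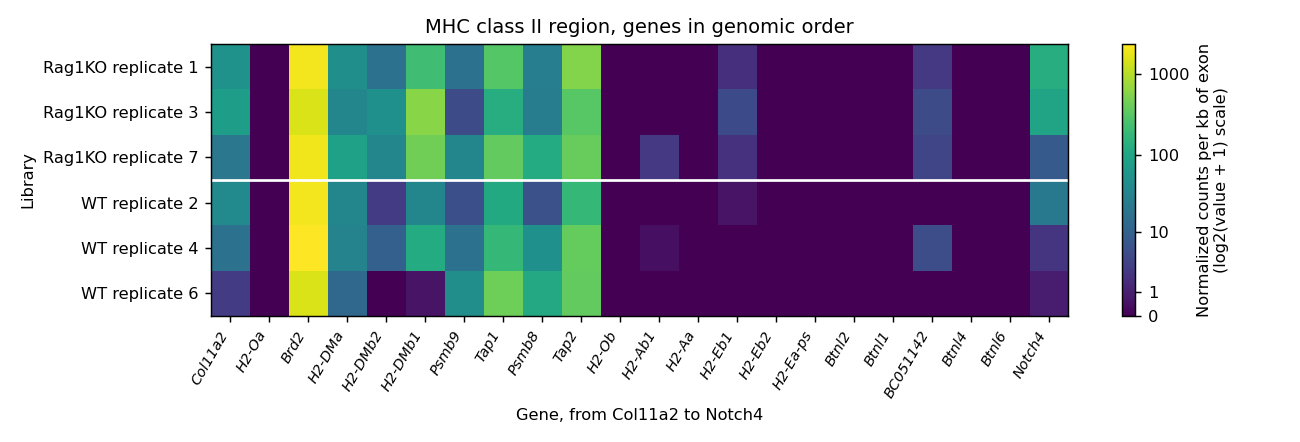
Genes of the class II region in genomic order from Col11a2 to Notch4 (columns) in each library (rows, lines labelled Rag1KO above the white line and lines labelled WT below it). Colour gives normalized counts per kb of exon on a log2(value + 1) scale. H2-DMb1 ranges from 217 to 598 normalized counts per kb in lines labelled Rag1KO and from 0.523 to 121 in lines labelled WT, while the class II chain genes to the right of Tap2 stay at or near 0.

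Other genes of the pathway were taken from 8 lists, and adjusted p-values are over all genes tested. The lists were drawn up with earlier results of these data known, and the genes named from each are those of lowest p, so neither is independent of how the genes moved. Of their 63 genes with a value, 49 passed the filter, and 0 of these 49 were called by limma, 0 by edgeR and 0 by DESeq2. At an unadjusted p under 0.05 limma gave 4 of the 49, beside 4.67% of all genes tested. Groups did not overlap for 2 genes with the lines labelled Rag1KO higher, Ifngr2 and Usf1, and for 3 with them lower, Ctsb, Lamp1 and Arl8b, beside 5.6% and 6.49% of all genes tested. The median log2 difference of the 49 was −0.11, beside −0.0003 for all genes tested.

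The factors that bind class II promoters were present in every line. Of 11 transcription factors and co-activators 0 were called, with a median log2 difference of 0.07. Rfx5, the DNA-binding subunit of the RFX complex, had 1106, 1542 and 1693 normalized counts in Rag1KO replicates 1, 3 and 7, against 1174, 1167 and 845 in WT replicates 2, 4 and 6 (limma log2 difference 0.44, SE 0.26, adjusted p = 0.850). The co-activators Crebbp and Carm1 and the CRE-binding factor Creb1 had log2 differences of 0.23, 0.13 and −0.18. None of these 4 genes passed the adjusted threshold.

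Most listed genes of the route from interferon gamma to Ciita were also expressed, with 0 of 11 tested genes called and a median log2 difference of 0.06. Irf8, also on that list, did not pass the filter and stayed at or below 12.6 normalized counts in every library. Ifngr2, a chain of the interferon gamma receptor, had 4139 ± 139 normalized counts in lines labelled Rag1KO and 2989 ± 610 in lines labelled WT (SD, n = 3 each), and its groups did not overlap (log2 difference 0.49, SE 0.19, limma adjusted p = 0.850). Its partner Ifngr1 had a log2 difference of 0.49, the Ciita promoter factor Usf1 0.32 and the feedback inhibitor Socs3 −0.42. Irf1, which encodes a transcription factor that acts on Ciita, was named after its values were seen. Irf1 had 1107, 2612 and 2583 normalized counts in Rag1KO replicates 1, 3 and 7, against 1996, 2476 and 2049 in WT replicates 2, 4 and 6, so that the groups overlapped. Of the listed Ciita repressors 0 of 3 tested were called. Log2 differences were −0.23 for the histone deacetylase gene Hdac2, −0.10 for the corepressor gene Sin3a and −0.16 for the methyltransferase gene Ezh2. Prdm1, also on that list, did not pass the filter. It had 2, 2 and 1 reads in Rag1KO replicates 1, 3 and 7, against 0, 0 and 56 reads in WT replicates 2, 4 and 6. Its part in the H2-DM values was not tested.

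Genes of the endosomal compartment in which H2-DM works were abundant. Of 10 tested proteases and processing genes 0 were called, 8 having a negative log2 difference, with a median of −0.50. Among the 8, the protease gene Ctsl (−1.06, SE 1.07) was at 259756 normalized counts in WT replicate 6 and at 13935 to 25676 in the other lines. Ctsb, encoding the lysosomal protease cathepsin B, had 36222, 57391 and 28203 normalized counts in Rag1KO replicates 1, 3 and 7, against 77065, 65906 and 129980 in WT replicates 2, 4 and 6, so that its groups did not overlap (log2 difference −1.16, SE 0.39, limma adjusted p = 0.850). Ifi30, the thiol reductase that opens disulfides of endosomal antigens, had a log2 difference of −0.93. The protease gene Ctsf and the cathepsin inhibitor gene Cst3 had positive values, 1.69 and 0.65. Ctss, the protease that trims the invariant chain in professional presenting cells, did not pass the filter and stayed at or below 6.76 normalized counts in every library. Of 8 trafficking and turnover genes 0 were called, with a median of −0.33, and Arl8b (−0.49), Cd63 (−0.86), Lamp1 (−0.46) and Lamp2 (−0.46) were below 0, as were 2 further members, while March1 (0.61) and Cd82 (0.19), named after their values were seen, were above it. Of co-stimulation genes only Cd80 and Icosl passed the filter, with log2 differences of −0.97 (SE 1.58) and 1.53 (SE 2.45), and Cd86 was at 0 in every library. Of the class I genes inside the region 0 of 4 were called, with log2 differences of −0.21 for Psmb9, 0.23 for Tap1, 0.47 for Psmb8 and 0.50 for Tap2.

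**Figure D4:**
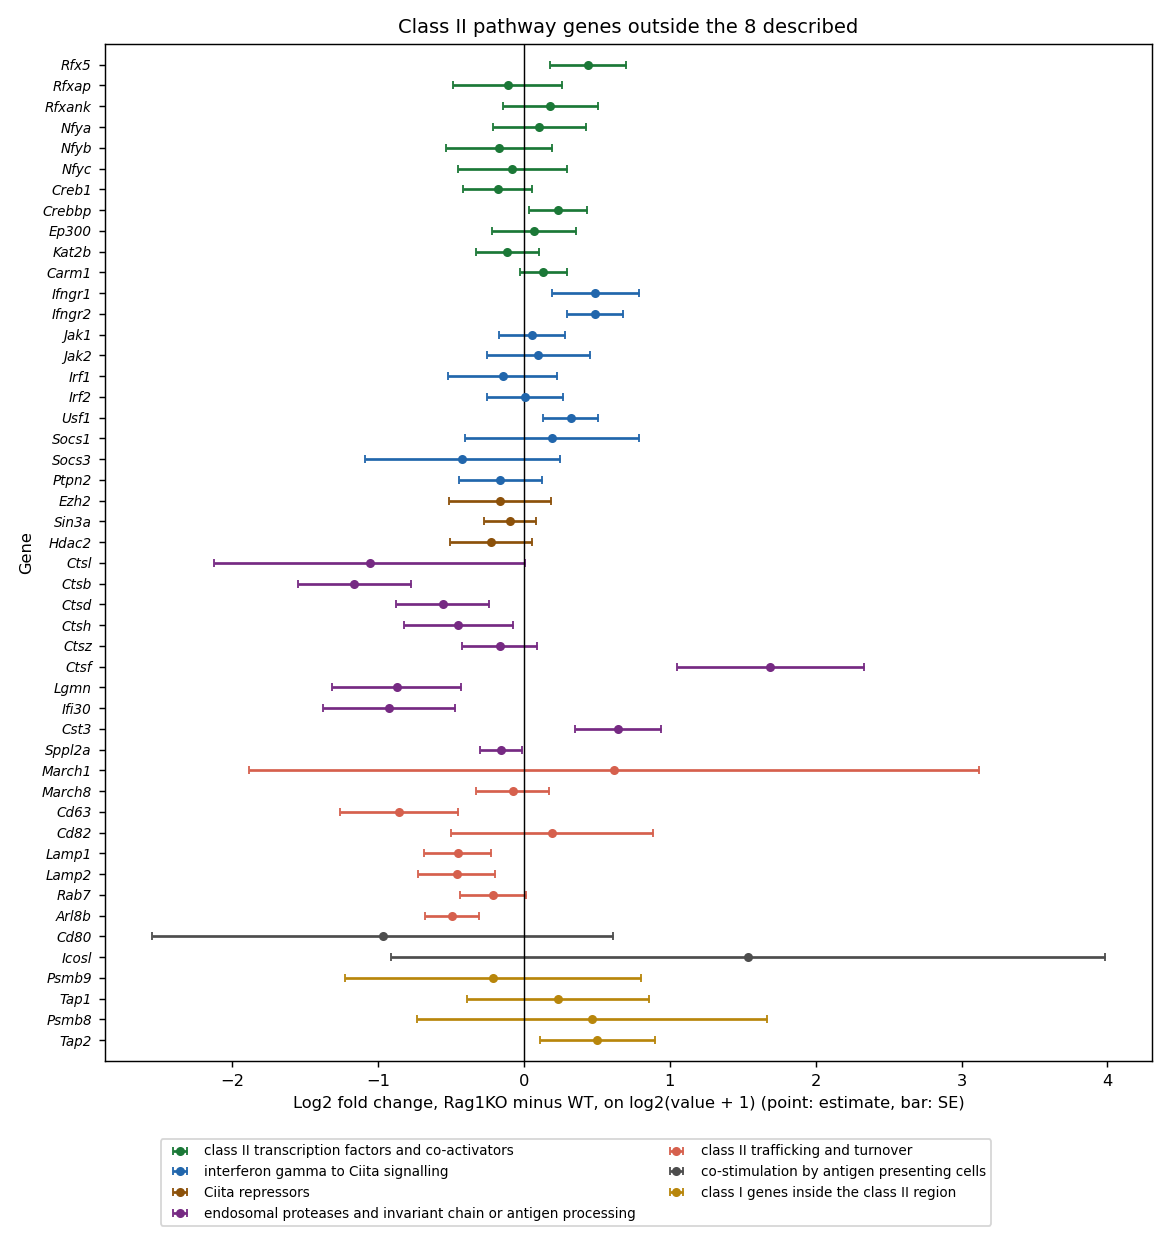
Log2 difference, lines labelled Rag1KO minus lines labelled WT on the log2(value + 1) scale, for tested pathway genes outside the 8 described, coloured by list. Points are limma estimates and bars are standard errors. No gene drawn passed the adjusted threshold, and the endosomal proteases have a median of −0.50.

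Markers of professional presenting cells were in part at 0 and in part expressed. Of 17 macrophage and pan-leukocyte markers, 5 were at 0 in all libraries (Fcgr1, Tyrobp, C1qa, C1qb and C1qc) and 11 stayed under 10 normalized counts everywhere, among them Ptprc (CD45), Itgam and Spi1. Of 9 dendritic cell markers 2 were at 0 in all libraries and 7 stayed under 10, and of 7 B cell markers 2 were at 0 and 6 stayed under 10. Zbtb46 made up most of the dendritic cell sum, which was 108 to 362 normalized counts in lines labelled Rag1KO and 197 to 462 in lines labelled WT. The B cell sum was 2.32 to 18.4 in lines labelled Rag1KO and 6.04 to 176 in lines labelled WT, where Pax5 in replicate 6 gave nearly all of the highest value.

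The macrophage and pan-leukocyte sum was 2123, 1312 and 463 normalized counts in Rag1KO replicates 1, 3 and 7, against 621, 916 and 360 in WT replicates 2, 4 and 6. It rested on a few genes. Lyz2, a lysozyme gene of myeloid cells, had 1493, 579 and 71.7 normalized counts in Rag1KO replicates 1, 3 and 7, against 113, 349 and 0 in WT replicates 2, 4 and 6. Csf1r, encoding the receptor for the macrophage growth factor CSF-1, had 141, 429 and 164 normalized counts in Rag1KO replicates 1, 3 and 7, against 72.5, 268 and 4.40 in WT replicates 2, 4 and 6. Both genes were lowest in WT replicate 6, as H2-DMb1 was. Csf1r, like H2-DMb1, was highest in Rag1KO replicate 3, and Lyz2 was highest in Rag1KO replicate 1. Other markers of the list had other orders. Cd14 was between 126 and 347 and Cd68 between 75.6 and 142 normalized counts over the 6 lines. Cd14 was lowest in WT replicate 6 but highest in WT replicate 2, and Cd68 was lowest in Rag1KO replicate 7. Fcer1g was lowest in WT replicate 2, at 2.01 normalized counts. Laptm5 was highest in WT replicate 6, at 91.5 normalized counts, and did not exceed 8.11 in the other lines. The part of myeloid cells in the H2-DM values was not tested. Of 7 T cell markers 3 were at 0 in all libraries, and Cd3d and Cd4 did not exceed 2.01 normalized counts. The other members, Trbc2 and Lck, reached 240 and 255 in WT replicate 6, and the T cell sum was 17.4 to 63.0 in lines labelled Rag1KO and 11.1 to 496 in lines labelled WT. All 10 fibroblast and mesenchymal markers passed the filter, though Lum was at 0 in Rag1KO replicate 3 and Thy1 at 0.88 normalized counts in WT replicate 6. Col1a2 was at 434020, 596023 and 684707 normalized counts in Rag1KO replicates 1, 3 and 7, against 446025, 631271 and 151806 in WT replicates 2, 4 and 6. Of 8 epithelial markers 3 passed the filter, and the sum of the list was 1762 to 6337 in lines labelled Rag1KO and 10.6 to 4856 in lines labelled WT, mostly from Krt19. Krt19 was at 0.88 in WT replicate 6, and Epcam was at 0 in every library. The endothelial sum was 212 to 1488 in lines labelled Rag1KO and 27.3 to 1011 in lines labelled WT. The melanocyte sum was 711 to 1770 in lines labelled Rag1KO and 639 to 2254 in lines labelled WT, mostly from Mitf.

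**Figure D5:**
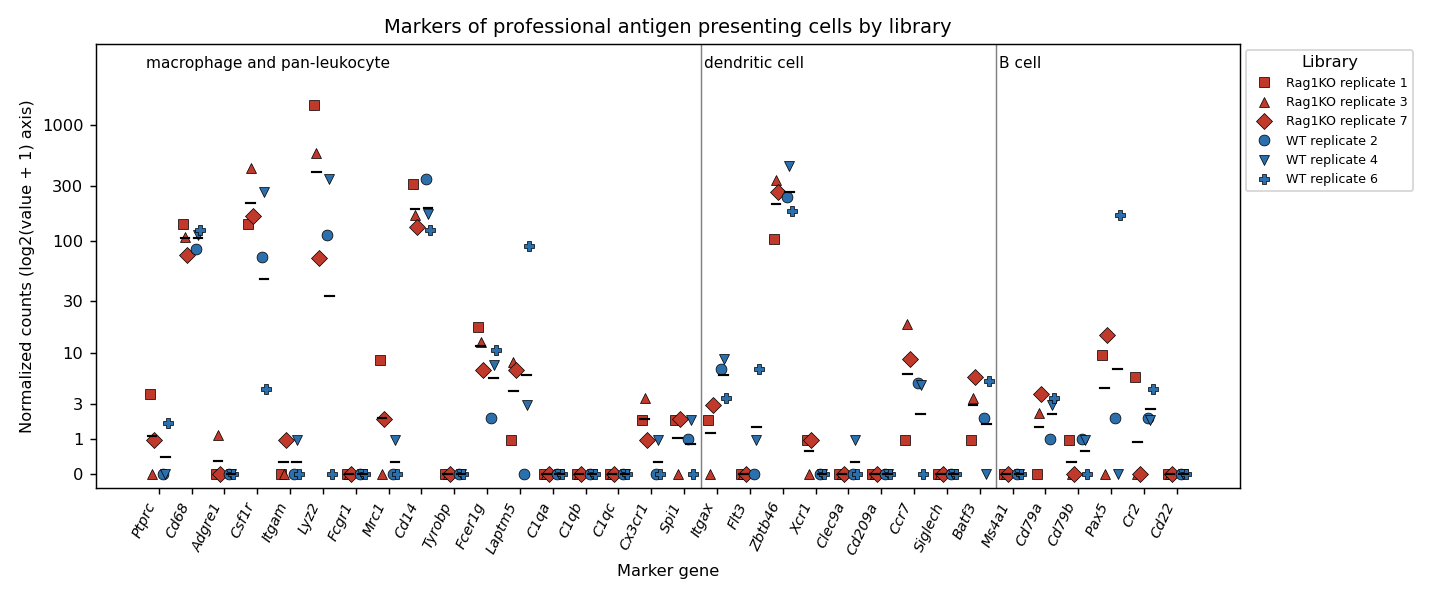
Normalized counts on a log2(value + 1) scale for markers of macrophages and other leukocytes, dendritic cells and B cells in each library, lines labelled Rag1KO left of lines labelled WT. Most leukocyte markers are at or near 0, and Lyz2, Csf1r, Cd14, Cd68 and Zbtb46 carry most of the signal.

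The genes whose levels followed the H2-DM genes most closely were ranked by Pearson's r over the 6 libraries with the mean of H2-DMa and H2-DMb1, each centred on the log2(value + 1) scale. H2-DMa and H2-DMb1 themselves had an r of 0.840. They were centred but not scaled, and H2-DMb1, at 0.88 to 1006 normalized counts, varied more than H2-DMa, at 44.9 to 294. H2-DMb1 therefore weighs more in the mean, and the ranking is mainly one of likeness to it. Of 11527 genes with a mean of at least 100 normalized counts, 168 reached an r of 0.95, so likeness at this level was common over so few libraries. The kinase genes Braf (r = 0.999) and Camkk1 (0.994), the endoplasmic reticulum isomerase gene Fkbp7 (0.992), Cd1d1 (0.991) and the catenin family gene Arvcf (0.991) came first. Without WT replicate 6 their r was between 0.949 and 0.998. These are descriptions, since the libraries share host label and depth differences, and no p is given.

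Braf varied little, with 2156, 2244 and 2320 normalized counts in Rag1KO replicates 1, 3 and 7, against 1959, 2076 and 1554 in WT replicates 2, 4 and 6. Cd1d1, which encodes the molecule that presents lipid antigens to natural killer T cells, varied most. It had 183, 275 and 571 normalized counts in Rag1KO replicates 1, 3 and 7, against 62.4, 122 and 0 in WT replicates 2, 4 and 6.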

How the data were processed

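RNA of the 6 lines was made into stranded TruSeq libraries, per the labels' protocols. Trim Galore 0.6.6, STAR 2.7.9a, FastQC, DESeq2 and mm10 are named in the submitters' processing notes. The counter, its annotation and its use of strand were not given in the sources used here. The deposited values are a signal per gene and library, read counts divided by a size factor by the authors. Dividing by the smallest step gave whole reads for 100% of values (tolerance 0.01), and the factors matched median-of-ratios factors computed from those reads.

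Of 55401 gene IDs, 55141 were found in GENCODE M21, which gave coordinates and exon lengths on mm10. Exon lengths take all annotated exons of a gene together, so values per kb depend on that annotation. Promoter sequences are RefSeq's on GRCm38.p6, with an entry for 5 of the 8 genes. The 16137 genes kept by edgeR's filterByExpr were fitted with limma 3.58.1 on log2(value + 1), and p-values were adjusted by the Benjamini-Hochberg method and called under 0.05. edgeR 4.0.16 and DESeq2 1.42.0 were run on the recovered reads as alternatives. The tests were tried on simulated data with the same variability setting for every gene. That trial does not show how they perform on lines as variable as these. Depth was 55409583 to 62998051 reads per library. Counting intervals are exact at 95%, and a count of 0 allows 3 reads.

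Pathway genes were named by lowest p, up to 4 per list, besides the class I genes of the region, and likeness by the 5 highest r. Ctss, Ctsl, Cd86, Irf1, Irf8, Prdm1, March1, Cd82 and the single marker genes were named after their values were seen. The 8 genes, the lists and the marker lists were chosen with earlier results of these data known. Some genes of the lists are counted but not reported by name here.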

Additional observations from a re-analysis of the deposited data

How the results depend on the processing

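The number of genes called by limma, 1, was 0 under edgeR with TMM and 0 with RLE scaling, 65 under DESeq2, and 0 to 5 when each library was left out in turn, the 5 without WT replicate 6. Of the pathway lists, 0 genes were called under every alternative run. Over the 25 pathway genes named by lowest p, the lowest adjusted p was 0.408, for Ctsf in DESeq2. The log2 difference of Cd74, 1.92, was −0.19 under edgeR with TMM, edgeR with RLE and DESeq2, which weigh mean counts rather than mean logs. With each library left out it was 0.10 to 4.06, against 0.65 to 1.38 for H2-DMa, 2.58 to 5.96 for H2-DMb1 and 2.40 to 4.50 for H2-DMb2. H2-DMb1 was 3.03 under edgeR and DESeq2. H2-DMb2 and Cd74 have no value under the filter of 1 CPM in 3 libraries. Icosl was −1.60 under edgeR with TMM, edgeR with RLE and DESeq2. With each library left out, the log2 differences ran over 0 for Socs3 (−1.03 to 0.28), Ezh2 (−0.41 to 0.20), Sin3a (−0.18 to 0.026), Hdac2 (−0.42 to 0.012), Cd80 (−1.99 to 0.72), Icosl (−1.13 to 3.93), Psmb9 (−0.96 to 0.52), Tap1 (−0.20 to 0.76) and Psmb8 (−0.71 to 1.34), and the cause was not tested. Of all alternative values for the 4 fitted genes, 52 of 55 kept their direction and moved by less than the pooled SD within groups. That SD was wide, at 0.71 for H2-DMa, 1.59 for H2-DMb2, 2.53 for H2-DMb1 and 3.07 for Cd74 on the log2 scale. It therefore let through the shifts of H2-DMb1 and Cd74 given above. Of all alternative values for the pathway genes, 335 of 350 kept their direction and their side of the threshold. No paired analysis was possible because the groups share no replicate number. Depth limits H2-Aa, H2-Ab1, H2-Eb1 and Ciita, where 3 reads or fewer cannot be told from 0.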
